A study of Mus musculus with 13 samples.

Results

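The T cell receptor alpha joining segments are the short pieces, named Traj plus a number, from which every alpha chain takes 1. All entries of the deposited table with such a name were taken, with the condition that a segment was above the table's no-read value of 0.0001 in at least 2 of the 10 Th17 libraries. The table held 49 such entries among 21073 genes, and all 49 met the condition. The least detected of them, Traj53, was above 0 in 5 Th17 libraries and 29 were above 0 in all 10, so no entry lay just outside the threshold. Within this set the segments were thus selected on detection in the Th17 libraries, not on the level of any group. The set itself was chosen with earlier results of these data known. Its comparisons with all genes are therefore descriptions and not independent evidence. Traj2 and Traj5 are spelled in capitals in the table and so fall outside the 49 entries.

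The study compared mice with STAT5 tetramer deficiency (DKI, a knock-in of both Stat5 genes whose STAT5 forms dimers but not tetramers) and wild type (WT) mice, all on the C57BL/6J strain. Th17 cells came from spleens and lymph nodes taken on day 14 after immunization with the myelin peptide MOG35-55 in complete Freund's adjuvant, and were expanded with that peptide under Th17 conditions for 3 days before CD4+ T cells were sorted. The design text gives no pertussis toxin for these mice, although the sample protocol names it. The groups used here are DKI Th17 cells (n = 2), WT Th17 cells (n = 2), DKI Th17 cells expanded with the chemokine CCL17 (n = 3) and DKI Th17 cells labelled as expanded without it (n = 3). DKI spinal cord APCs, DKI spinal cord monocytes and DKI bone marrow monocytes (n = 1 each), from mice in which experimental autoimmune encephalomyelitis was induced with the same peptide and pertussis toxin, gave a background of cells that do not rearrange this locus. The labels state no age, no number of animals behind a library and no pooling, and they do not say whether libraries of a group came from separate animals or cultures. The p-values therefore measure only the spread between these libraries, which may be technical.

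In the thymus, recombination joins 1 variable segment of the alpha locus to 1 joining segment, and cutting out the DNA between them removes the joining segments upstream of the one used. The joining segments downstream of it remain in the gene, between the used segment and the constant gene Trac, and are transcribed and then spliced out, so that the mature mRNA carries 1 joining segment next to Trac. A population of T cells that answers a single peptide can be enriched for a few clones and so for a few joining segments. A read on a joining segment can come from a spliced receptor mRNA or from an unspliced transcript that runs through it. The deposited values do not separate the 2 sources, and how reads that span a segment and Trac were counted was not given in the sources used here.

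All 49 segments lie on the plus strand of chromosome 14 (mm10), in 61.2 kb at chr14:54156133-54217357. The 3′-most of the 49, Traj3, ends 3.16 kb before Trac at chr14:54220521-54224198, and Traj2 lies between them at chr14:54217836-54217901. Each segment is a single stretch of 55 to 66 bases that encodes the end of the third complementarity-determining region and the following framework strand. The sequences below, from the GENCODE M21 transcripts on GRCm38 (the assembly named mm10), are the 6 segments with the highest mean RPKM over the 10 Th17 libraries, then Traj18 and Traj33. These last 2 are known in mice as the segments of the invariant receptors of NKT cells and of MAIT cells. Capitals mark TTTGGNNNNGGN or TTCGGNNNNGGN, the codons of the Phe-Gly-X-Gly motif found in most joining segments.
Traj19, chr14:54200386-54200446: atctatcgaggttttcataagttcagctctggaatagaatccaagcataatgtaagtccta
Traj16, chr14:54203134-54203194: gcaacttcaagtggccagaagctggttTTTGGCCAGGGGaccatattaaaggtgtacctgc
Traj7, chr14:54211470-54211528: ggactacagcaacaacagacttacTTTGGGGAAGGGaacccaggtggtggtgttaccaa
Traj21, chr14:54198790-54198846: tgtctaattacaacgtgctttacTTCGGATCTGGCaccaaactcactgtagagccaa
Traj15, chr14:54204422-54204481: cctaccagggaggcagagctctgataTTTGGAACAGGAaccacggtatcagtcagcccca
Traj23, chr14:54196081-54196140: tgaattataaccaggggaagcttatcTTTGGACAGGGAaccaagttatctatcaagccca
Traj18, chr14:54200777-54200842: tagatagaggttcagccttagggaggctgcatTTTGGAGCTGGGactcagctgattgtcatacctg
Traj33, chr14:54185358-54185414: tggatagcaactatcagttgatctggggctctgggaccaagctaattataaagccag
The letters were searched on the coding strand only, and 40 of the 49 segments held them. Of 57312 windows of 60 bases cut from the centres of protein-coding transcripts, 295 (0.515%) held them. Traj19, the segment with the most reads, was among the 9 segments without a match, together with Traj59, Traj44, Traj41, Traj38, Traj33, Traj29, Traj20 and Traj3. These 9 spanned the whole range of abundance, with 13 reads for Traj59 and 530 for Traj19 over the 10 Th17 libraries. No match says only that these letters are not there. The segments are distinct sequences: the longest run of bases that any pair shared was 16, in Traj53 and Traj45.

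Because the segments are so short, a single read was worth 0.742 to 1.43 RPKM, and the values could be turned back into reads. All 444 segment values above 0 in the Th17 libraries lay within 0.1 of a whole read. The library totals were estimated so as to make such values whole, so this closeness is not a separate check. The 10 Th17 libraries held an estimated 12680000 to 20430000 assigned reads each, and 9328 reads on the 49 segments together. The label as T cells held in all 10 libraries, with Cd4 at 8.25 to 8.85 and Cd8a, a defining gene of the other T cell lineage, at 0.34 to 0.77 on the log2(RPKM + 1) scale, although Cd8b1 stood at 2.19 to 3.33. The recombinase genes Rag1 and Rag2, which cut the receptor loci in thymocytes, were at 0.02 or less in every Th17 library. DKI replicate 2 stood apart in Il17a, the cytokine gene that names Th17 cells, at 7.57, against 10.38 in DKI replicate 1 and 8.67 in both WT libraries. Median folds and folds of named segments in the comparison with WT cells are therefore also given without it where that moves them by over 1.5 times. The 6 libraries of the CCL17 experiment also carried more myeloid RNA, with the macrophage and monocyte gene Lyz2 at 8.40 to 8.85, against 2.10 to 4.73 in the DKI and WT libraries. Differences between these 2 sets of libraries are given as values only.

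The joining segments were abundant in Th17 cells and nearly silent in the myeloid cells. The 49 segments took 1565 and 754 reads in the DKI libraries and 2542 and 2389 in the WT libraries. They took 403, 452 and 375 reads with CCL17 and 320, 250 and 278 without it. In the single libraries of the myeloid groups they took 4 reads in spinal cord APCs (exact Poisson 95% interval 1.09 to 10.2), 2 in spinal cord monocytes (0.242 to 7.22) and 0 in bone marrow monocytes (up to 3.69), intervals that cover counting error only. Trac stood at 2.87, 2.83 and 0.05 on the log2(RPKM + 1) scale in those 3 libraries, in the same order, against 8.78 or more in every Th17 library. The 2 spinal cord libraries, which had traces of joining segments, also had traces of Trac.

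**Figure D1:**
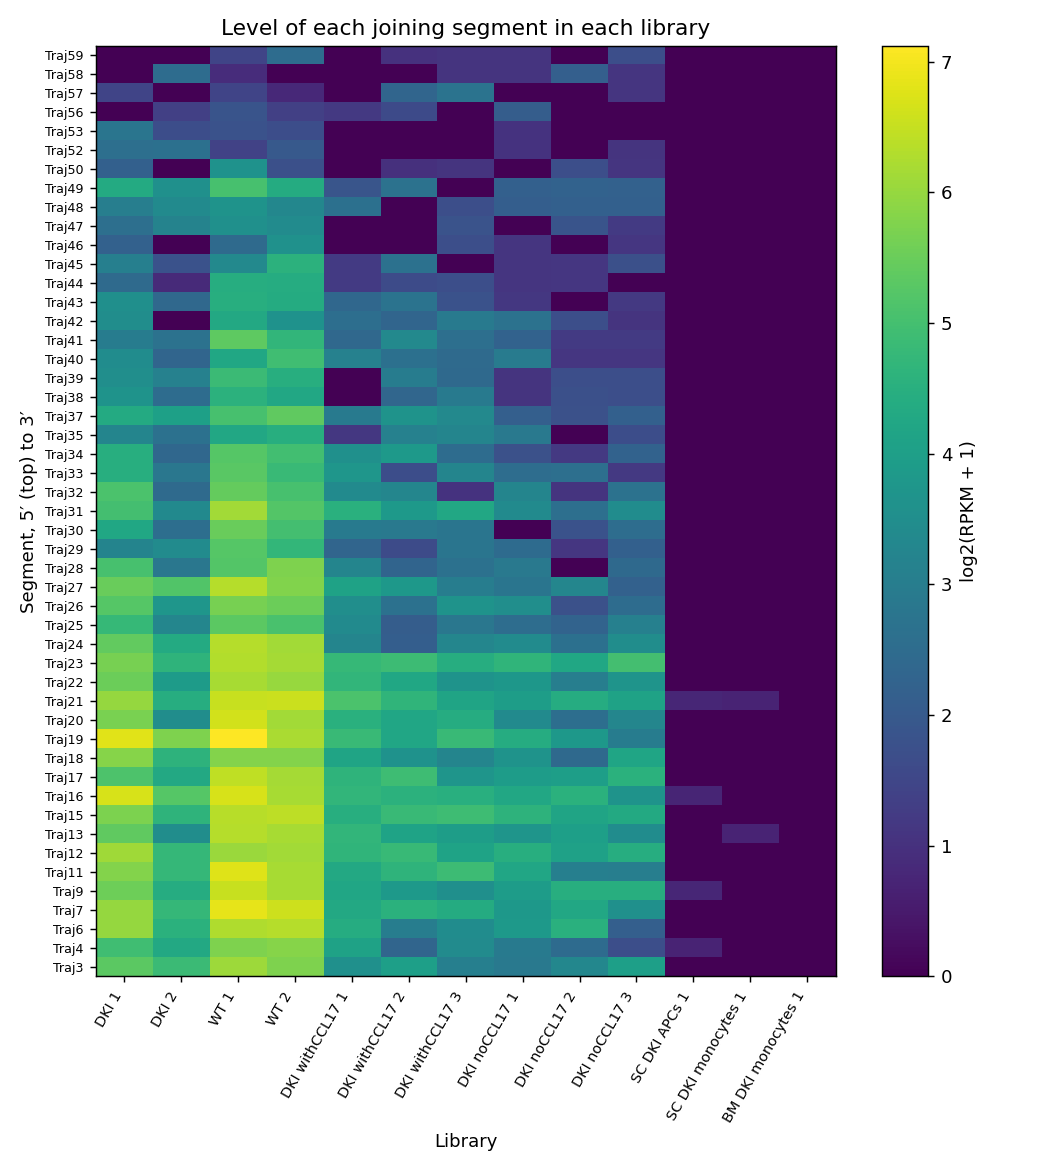
Level of each of the 49 joining segments (one line each, 5′ at the top and 3′ at the bottom) in each of the 13 libraries, as log2(RPKM + 1) by colour, 0 being no read. Levels were higher towards the bottom, in the WT and DKI libraries at the left, and 0 or close to it in the 3 myeloid libraries at the right.

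Within the Th17 cells the level of a segment followed its place in the locus. Across the 49 segments the order from 5′ to 3′ and the mean level over the 10 libraries had a Spearman rho of 0.91, and within single libraries rho was 0.74 to 0.93. The segments share libraries and neighbouring segments can share transcripts, so this is a description of the locus with no p. For a description chosen after the values were seen, the locus was cut into 3 stretches. The 16 segments nearest Trac, Traj22 to Traj3, held 61.5% of all segment reads, with a lowest share of 59.1% in WT replicate 2 and a highest of 72.4% in replicate 2 without CCL17. The 17 middle segments, Traj40 to Traj23, held 30.8%, with library shares of 20.4 to 32.6%. The 16 segments farthest from Trac, Traj59 to Traj41, held 7.70%, with library shares of 4.71 to 8.89%. Every one of the 10 libraries had this order of the 3 stretches.

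In mean level the same slope held in each group. The median segment of the stretch nearest Trac stood at 5.19 in DKI cells, 6.33 in WT cells, 4.39 with CCL17 and 3.74 without it, on the log2(RPKM + 1) scale. The median of the farthest stretch stood at 1.99 in DKI cells, 3.26 in WT cells, 1.10 with CCL17 and 0.94 without it. The peak lay at Traj19 with a mean of 48.7 RPKM over the 10 libraries, and Traj4 and Traj3, the 2 of the 49 nearest Trac, averaged 20.1 and 24.8 RPKM. Traj2, still nearer and outside the 49 by its spelling, averaged 31.7 RPKM and stood above Traj4 and Traj3 in both DKI and both WT libraries. At the other end Traj59, Traj58 and Traj56 averaged 1.20, 1.23 and 1.23 RPKM, and Traj59, Traj58, Traj57, Traj56, Traj53 and Traj52 each had 21 reads or fewer over all 10 libraries.

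**Figure D2:**
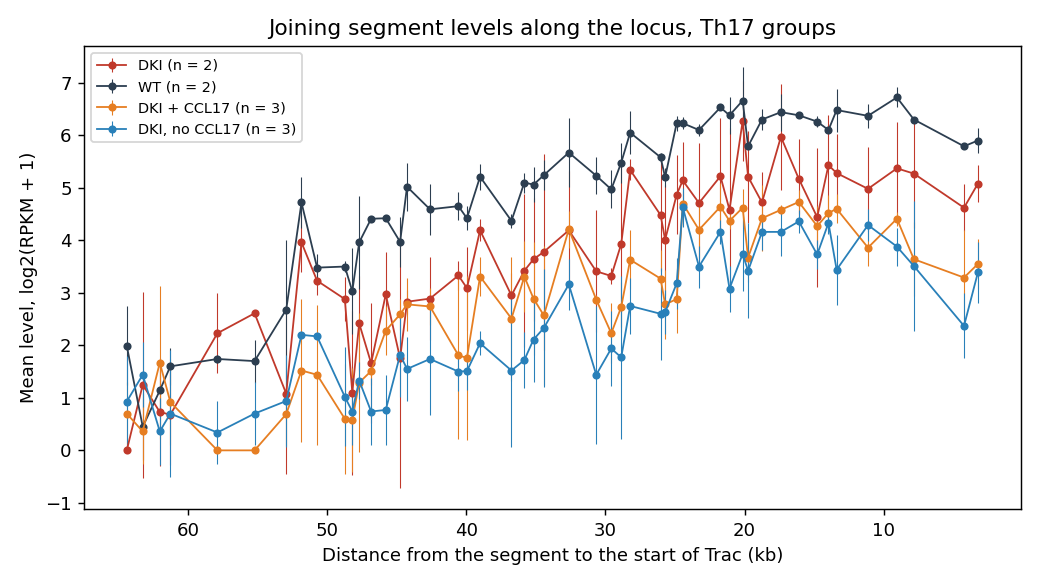
Mean level of each joining segment in the 4 Th17 groups, as log2(RPKM + 1), against the distance of the segment from the start of Trac in kb; bars are the SD over the libraries of a group. All 4 groups climbed towards Trac, and the WT line lay above the DKI line for all but 3 segments far from Trac (Traj58, Traj53 and Traj52).

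No segment dominated a library. Traj19 took the most reads in 3 libraries, with 7.86% of the segment reads in DKI replicate 1 (exact binomial 95% interval 6.57 to 9.31%), 8.62% in DKI replicate 2 (6.72 to 10.9%) and 6.06% in WT replicate 1 (5.16 to 7.06%). In WT replicate 2 the leader was Traj7 with 4.81% (3.99 to 5.75%). With CCL17 the leaders were Traj21, Traj17 and Traj15, with 5.96, 6.42 and 6.67% in replicates 1, 2 and 3. Without CCL17 they were Traj23, Traj16 and Traj23, with 6.56, 7.60 and 9.35%. The leading share rested on 19 to 29 reads in each of those 6 libraries, so its intervals were wide, up to 6.20 to 13.4% for replicate 3 without CCL17. All of these leaders except Traj23 lie in the stretch nearest Trac, and Traj23 is the segment just 5′ of that stretch.

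Spread over the segments was summarised as the effective number, the inverse Simpson index of the shares of summed RPKM, which would be 49 if all segments were equal. It was 27.6 and 27.0 in DKI cells and 31.5 and 32.9 in WT cells, so both DKI libraries lay below both WT libraries. It was 27.4, 27.1 and 27.8 with CCL17 and 27.5, 21.7 and 23.3 without it, and these groups overlapped. The index falls when reads are few. Corrected for the number of reads, an alternative chosen after seeing the data, it was 28.0 and 27.8 in DKI cells and 32.0 and 33.5 in WT cells.

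Profiles of segment shares were alike between libraries, as measured by the Bray-Curtis overlap, which is 1 for equal profiles. The overlap was 0.843 between the DKI libraries and 0.903 between the WT libraries. Between genotypes it was 0.876 for number 1 (DKI and WT) and 0.799 for number 2. In the CCL17 experiment the same-number pairs had overlaps of 0.832, 0.747 and 0.698 for numbers 1, 2 and 3, with a median of 0.747, and pairs that did not share a number had a median of 0.773. Sharing a number did not go with a higher median overlap in that experiment. Libraries with few reads have low overlap from counting error alone, and the part of that error was not tested.

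The first comparison set DKI Th17 cells against WT Th17 cells. The summed joining segment reads, per 1000000 assigned reads (RPM), were 86.1 and 37.1 in DKI cells, against 139 and 117 in WT cells. Both DKI libraries lay below both WT libraries, and within numbers the ratio of DKI to WT was 0.620 for number 1 and 0.317 for number 2. The constant gene Trac, which every alpha chain carries, differed much less, at 9.27 and 9.35 in DKI cells and 9.52 and 9.52 in WT cells on the log2(RPKM + 1) scale. Its fold was -0.21 (SE 0.10, adjusted p = 0.312, limma). Summed segment RPKM divided by Trac RPKM was 2.31 and 0.944 in DKI cells, against 3.16 and 2.66 in WT cells. The 13 beta joining segments, which serve the partner chain in the same cells, gave 2.37 and 2.53 in DKI cells, against 2.84 and 2.53 in WT cells, on the same measure of summed RPKM over Trac RPKM. Not divided by Trac, the beta segments summed to 1460 and 1640 RPKM in DKI cells, against 2080 and 1850 RPKM in WT cells, also without overlap. The alpha segments summed to 1430 and 614 RPKM in DKI cells, against 2320 and 1950 RPKM in WT cells. The difference between alpha and beta segments was not tested. In bulk samples, fewer cells of a type and less RNA per cell cannot be told apart.

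**Figure D3:**
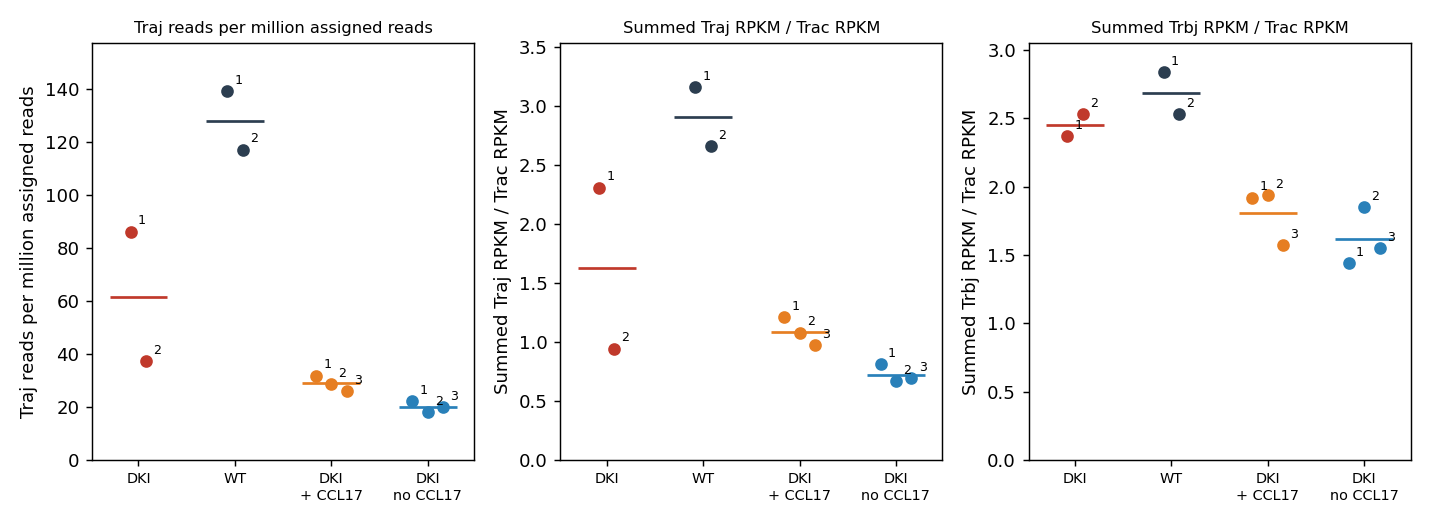
Joining segment sums in each Th17 library (points, with the replicate number) and group means (horizontal lines): alpha segment RPM, summed alpha segment RPKM over Trac RPKM, and summed beta segment RPKM over Trac RPKM. DKI replicate 2 lay lowest of the DKI and WT libraries for alpha segments (37.1 RPM), and the 3 libraries with CCL17 lay above the 3 without it in the first and second panels.

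No single segment was called in this comparison. Of the 49 segments, 48 passed the filter on low values (all but Traj58), and 0 of the 48 reached an adjusted p under 0.05 with limma and Benjamini-Hochberg adjustment over 11078 genes. The background was also 0.0%, with a smallest adjusted p of 0.0659 over all genes and 0.106 over the segments. At an unadjusted p under 0.05, 23 of 48 segments were lower in DKI cells (47.9%), beside a background of 8.71%, and 1 was higher (2.08%), beside 8.25%. Without DKI replicate 2 those lower were 10 of 48, beside 11.8% of all genes. The fold was below 0 for 46 of 48 segments (95.8%), beside 45.3% of all genes, and for 41 of 48 without DKI replicate 2, beside 47.1%. The median log2 fold of the 48 was -1.34, and that of all genes was 0.03. Traj59 was at 0 in both DKI libraries, and without it the median was -1.33.

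For 37 of the 48 segments (77.1%) both DKI libraries lay below both WT libraries, beside a background of 20.1%. For 41 (85.4%) DKI was lower than WT in both same-number pairs, beside 29.4%. The size rested on DKI replicate 2: without it the median fold was -0.67, and without DKI replicate 1 it was -1.89. Taken alone, DKI replicate 1 lay below both WT libraries for 39 of 48 segments (81.2%), beside a background of 34.9%, and DKI replicate 2 did so for 44 (91.7%), beside 36.8%. The side on which the segments lay was therefore alike in the 2 DKI libraries, and the distance was not.

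The 3 smallest p-values belonged to segments of the 5′ and middle stretches. Traj44, with no match to the motif, stood at 2.46 and 0.85 in DKI cells, against 4.43 and 4.40 in WT cells, on the log2(RPKM + 1) scale. These are 5 and 1 reads against 23 and 25, and the groups did not overlap. Its fold was -2.76 (SE 0.52, adjusted p = 0.106, limma), the lowest of all segments. Traj41 stood at 3.00 and 2.67 in DKI cells, against 5.35 and 4.70 in WT cells, with 7 and 6 reads against 40 and 28. Its fold was -2.19 (SE 0.42, adjusted p = 0.119, limma). Traj37 stood at 4.34 and 4.05 in DKI cells, against 5.04 and 5.39 in WT cells, a fold of -1.02 (SE 0.25, adjusted p = 0.137, limma). All 3 were lower in both DKI libraries than in either WT library, and none passed the threshold. Without DKI replicate 2 the folds of Traj44, Traj41 and Traj37 were -1.95, -2.02 and -0.87.

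Several abundant segments near Trac had folds much like the median segment, and the 2 most abundant had smaller ones. Traj15 stood at 5.71 and 4.63 in DKI cells, against 6.36 and 6.41 in WT cells, a fold of -1.21 (SE 0.31, adjusted p = 0.147, limma). Traj17 stood at 5.13 and 4.30 in DKI cells, against 6.44 and 6.16 in WT cells, a fold of -1.59 (SE 0.41, adjusted p = 0.150, limma). Neither overlapped between the groups. Traj7 stood at 5.99 and 4.75 in DKI cells, against 6.86 and 6.59 in WT cells, again without overlap, a fold of -1.36 (SE 0.36, adjusted p = 0.155, limma). Without DKI replicate 2 the folds of Traj15 and Traj7 were -0.67 and -0.74, and that of Traj17 was -1.17. Traj19, by contrast, stood at 6.81 and 5.74 in DKI cells, against 7.12 and 6.21 in WT cells, so that DKI replicate 1 lay above WT replicate 2. Its fold was -0.39 (SE 0.51, adjusted p = 0.711, limma), and it was 0.14 without DKI replicate 2 and 0.06 without WT replicate 1. Traj16 stood at 6.68 and 5.25 in DKI cells, against 6.69 and 6.19 in WT cells. Its fold of -0.47 (SE 0.43, adjusted p = 0.588, limma) became 0.24 without DKI replicate 2.

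The other abundant segments named for their mean RPKM, Traj21, Traj23, Traj11, Traj12 and Traj9, had folds of -1.31, -1.09, -1.21, -0.67 and -1.39, and their adjusted p-values were 0.154 to 0.395 with limma. Without DKI replicate 2 these 5 folds were -0.54, -0.57, -0.68, 0.01 and -0.83, in the same order. The segments that varied most over the 10 libraries, Traj28, Traj30, Traj32, Traj39 and Traj49, had folds of -1.55, -1.83, -1.46, -1.32 and -0.76. Their SEs of 0.71 to 1.06 were wide, and without DKI replicate 2 the folds were -0.43, -1.01, -0.13, -1.13 and -0.36, in the same order. Traj53 and Traj52, adjacent at the 5′ end and singled out after their values were seen, had the 2 folds above 0, at 0.49 and 0.91. Traj52 had 6 and 7 reads in DKI cells, against 2 and 4 in WT cells, which is the single segment with both DKI libraries above both WT libraries (2.08%, beside a background of 19.9%). Traj53 had 7 and 3 reads in DKI cells, against 3 and 3 in WT cells.

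The median fold differed little along the locus, being -1.45 over 15 segments of the farthest stretch, -1.42 over the 17 middle segments and -1.21 over the 16 nearest Trac. All 17 middle and all 16 nearest segments had folds below 0. Without DKI replicate 2 these medians were -0.83, -0.68 and -0.63, and 12 of the 16 nearest segments had folds below 0. In RPM the DKI mean was 0.419, 0.437 and 0.514 times the WT mean in the farthest, middle and nearest stretch.

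Several marker sums moved with this comparison, and their part in it was not tested. The summed level of 7 myeloid genes was 4.26 to 4.95 in DKI cells and 5.44 to 6.37 in WT cells, on the log2(summed RPKM + 1) scale, and none of the 7 was at 0. The summed level of 5 thymocyte genes was 3.58 to 4.26 in DKI cells and 4.44 to 4.63 in WT cells. Rag1 and Rag2 were at 0 in both groups, and Ptcra was at 0.06 or less. The highest of the 5 was Cd1d1, at 3.20 and 3.59 in DKI cells, against 3.75 and 3.93 in WT cells. The same sum was 3.93 in spinal cord APCs, 3.53 in spinal cord monocytes and 2.99 in bone marrow monocytes. It is therefore not particular to thymocytes. The summed level of 5 gamma delta T cell genes was 2.22 to 2.53 in DKI cells and 2.57 to 2.72 in WT cells, and none was at 0 throughout. These genes did not move together. Trdc and Tcrg-C1 were lower in both DKI libraries, and Tcrg-C4 and Sox13 overlapped. Tcrg-C2 was higher in both, at 0.82 and 1.05 in DKI cells, against 0.28 and 0.13 in WT cells. The summed level of 4 T cell genes was 10.69 to 10.74 in DKI cells and 10.85 to 10.90 in WT cells. Dntt, the polymerase that adds bases at receptor junctions, stood at 1.89 and 3.01 in DKI cells, against 3.22 and 3.38 in WT cells. Summed levels of B cell, CD4 T cell and CD8 T cell genes overlapped between the groups.

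**Figure D4:**
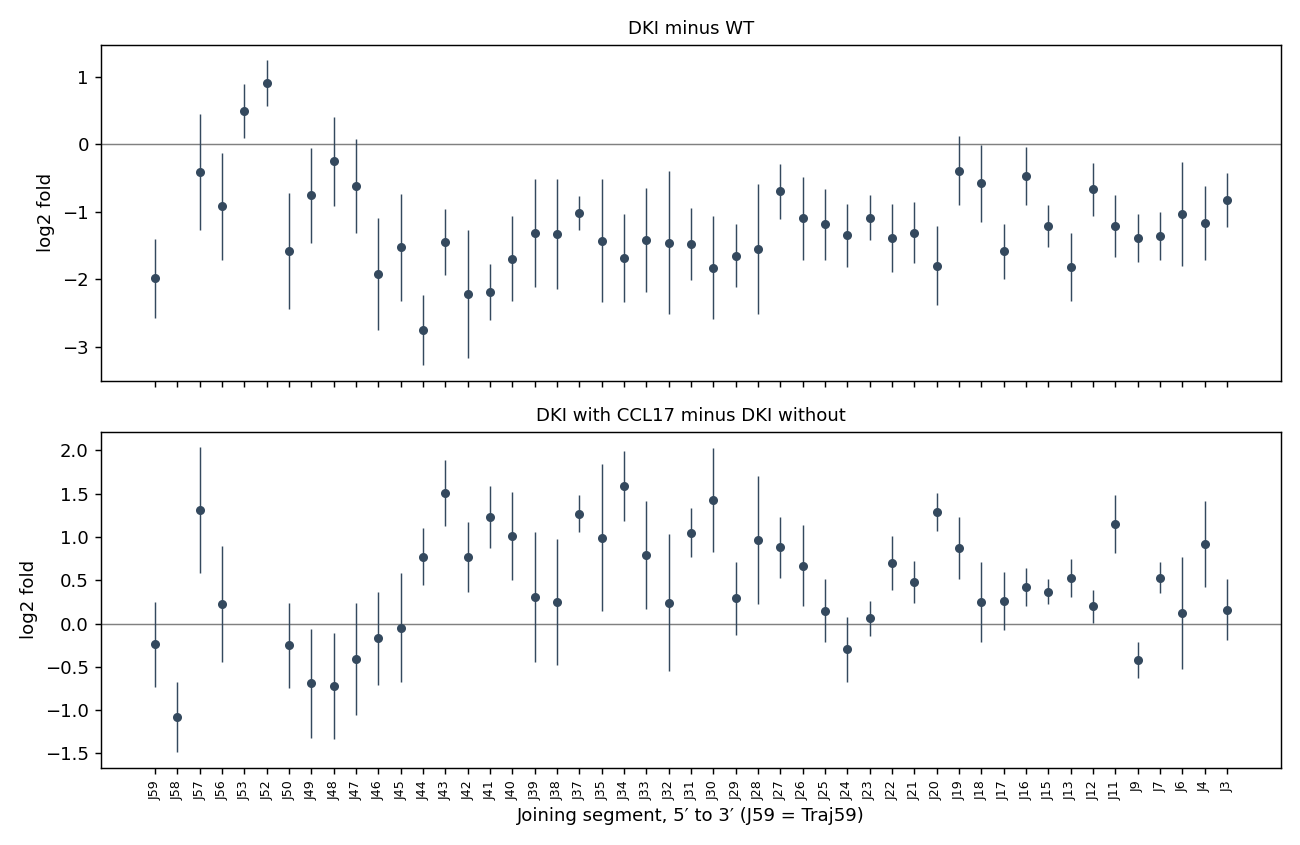
Log2 fold of each tested joining segment, ordered 5′ to 3′ (J59 is Traj59), for DKI against WT Th17 cells (top) and for DKI Th17 cells with against without CCL17 (bottom); bars are the SE of the limma fit. In the top panel 46 of 48 points lie below 0, and in the bottom panel 37 of 47 lie above it.

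The second comparison set DKI Th17 cells expanded with CCL17 against those expanded without it. The segments together took 31.8, 28.6 and 26.0 RPM with CCL17, against 22.1, 18.1 and 19.8 without it. All 3 libraries with CCL17 lay above all 3 without it, and within numbers 1, 2 and 3 the ratios were 1.44, 1.58 and 1.31. Trac stood at 8.78, 8.78 and 8.80 with CCL17 and at 8.82, 8.83 and 8.90 without it, a fold of -0.06 (SE 0.06, adjusted p = 0.999, limma). Summed segment RPKM over Trac RPKM was 1.21, 1.08 and 0.971 with CCL17, against 0.813, 0.665 and 0.691 without it, again without overlap. For the beta joining segments the same ratio was 1.92, 1.94 and 1.57 with CCL17 and 1.44, 1.85 and 1.55 without it, and these overlapped.

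Of the 49 segments, 47 passed the filter (all but Traj52 and Traj53), and 0 of the 47 were called over 11297 genes, beside a background of 0.0% (limma; smallest adjusted p over the segments 0.999). At an unadjusted p under 0.05, 10 of the 47 were higher with CCL17 (21.3%), beside a background of 2.12%, and 1, Traj58, was lower (2.13%), beside 1.52%. The fold was above 0 for 37 of 47 (78.7%), beside 45.8% of all genes, and the median fold was 0.42, against -0.01 over all genes. The groups did not overlap for 10 segments, all higher with CCL17 (21.3%, beside a background of 5.2%), while 0 lay lower without overlap, beside 4.28%. These were Traj44, Traj43, Traj41, Traj37, Traj34, Traj31, Traj30, Traj20, Traj11 and Traj7. Traj44 had only 1, 2 and 2 reads with CCL17, against 1, 1 and 0 without it. Its levels were apart only because 1 read weighs more in a library with fewer assigned reads. For 18 segments (38.3%) the library with CCL17 was higher in all 3 same-number pairs, beside 16.4%. For 2 (4.26%), Traj58 and Traj24, the library with CCL17 was lower in all 3, beside 20.1%. Some of these pairs had equal reads, as Traj40 with 6 against 6 in number 1 and Traj58 with 1 against 1 in number 3.

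With the replicate number as a block, 2 segments were called, both higher with CCL17, and they were the 2 genes called in the whole table (a background of 0.0177%). The labels do not state that equal numbers belong together. Traj20, without the motif letters, stood at 4.51, 4.20 and 4.41 with CCL17, against 3.40, 2.58 and 3.26 without it. These are 16, 16 and 17 reads against 8, 4 and 7, and the groups did not overlap. Its fold was 1.29 in both fits, with an SE of 0.22 and an adjusted p of 0.999 without the block, and an SE of 0.10 and an adjusted p of 0.025 with it (limma). Traj31 stood at 4.53, 3.84 and 4.26 with CCL17, against 3.42, 2.60 and 3.46 without it, which is 16, 12 and 15 reads against 8, 4 and 8. Its fold was 1.05, with an adjusted p of 0.999 without the block and 0.025 with it (SE 0.28 and 0.09, limma). In both segments the 3 libraries with CCL17 had more reads than any library without it.

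The other 3 of the 5 segments with the smallest p-values, Traj37, Traj34 and Traj43, lie farther from Trac than Traj20 and Traj31. Traj37 stood at 2.92, 3.65 and 3.35 with CCL17, against 2.16, 1.77 and 2.19 without it, a fold of 1.27 (SE 0.21). Traj34 stood at 3.57, 3.82 and 2.53 with CCL17, against 1.76, 1.17 and 2.23 without it, a fold of 1.59 (SE 0.40), the highest of all segments. Traj43 stood at 2.37, 2.71 and 1.78 with CCL17, against 1.15, 0.00 and 1.17 without it, a fold of 1.51 (SE 0.38). The groups did not overlap in any of these 3, and each adjusted p was 0.999 without the block and 0.0796 to 0.170 with it (limma). They rest on 1 to 12 reads a library, and on 0 for Traj43 in replicate 2 without CCL17.

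Of the 10 segments with the highest mean RPKM, 9 had folds above 0. Traj11 had 14, 22 and 24 reads with CCL17, against 15, 6 and 6 without it, and its level did not overlap between the groups, with a fold of 1.15 (SE 0.34). Traj7 had 14, 21 and 17 reads with CCL17, against 11, 15 and 9 without it, also without overlap in level, with a fold of 0.53 (SE 0.18). Their adjusted p was 0.999 without the block, and with it 0.192 for Traj11 and 0.134 for Traj7 (limma). Traj21, Traj15, Traj12 and Traj17 had folds of 0.48, 0.37, 0.20 and 0.26. Traj19 had 21, 17 and 24 reads with CCL17, against 18, 11 and 6 without it, a fold of 0.87 (SE 0.36). Traj16 had 19, 22 and 19 reads with CCL17, against 16, 19 and 10 without it, a fold of 0.42 (SE 0.22), and its groups overlapped. Traj23 had 20, 27 and 18 reads with CCL17, against 21, 15 and 26 without it, a fold of 0.06 (SE 0.20). Traj9, the 1 with a fold below 0, had 13, 12 and 9 reads with CCL17, against 12, 17 and 17 without it, a fold of -0.42 (SE 0.21, adjusted p = 0.999, limma). Traj58 had the lowest fold, -1.08, and rests on 0, 0 and 1 reads with CCL17.

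By stretch, the median fold was 0.79 over the 17 middle segments, of which 16 were above 0, and 0.45 over the 16 segments nearest Trac, of which 15 were. Over the 14 tested segments of the farthest stretch it was -0.11, with 6 above 0. In RPM the mean with CCL17 was 1.32, 1.59 and 1.39 times the mean without it in the farthest, middle and nearest stretch. The farthest stretch differs in sign between its median fold and its summed reads, and 85.7% of its segment values in these 6 libraries were 3 reads or fewer. The share of the middle stretch was 30.0, 29.2 and 31.5% with CCL17, against 30.0, 20.4 and 30.6% without it, so only replicate 2 without CCL17 differed.

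Marker sums overlapped between the CCL17 groups, but some moved within same-number pairs. The 7 myeloid genes summed to 9.28 to 9.66 with CCL17 and 9.35 to 9.96 without it, on the log2(summed RPKM + 1) scale. The 5 B cell genes summed to 6.29 to 6.39 with CCL17 and 5.86 to 6.51 without it. The 4 T cell genes summed to 10.21 to 10.37 with CCL17 and 10.33 to 10.44 without it. None of these genes was at 0 throughout in either group. Within numbers 1, 2 and 3 the myeloid sum was 9.28, 9.61 and 9.66 with CCL17, against 9.35, 9.93 and 9.96 without it. Of the 7 genes, 6 were lower with CCL17 in all 3 pairs, beside 20.1% of all genes tested. The T cell sum was 10.37, 10.21 and 10.26 with CCL17, against 10.44, 10.33 and 10.34 without it. All 4 genes, Trac among them, were lower in all 3 pairs, beside the same background. The genes of a list share libraries and are not separate observations. None of the 5 B cell genes lay on 1 side in all 3 pairs. The part of these differences in the joining segment values was not tested.

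Traj18 and Traj33 belong to invariant T cell receptors and were read beside the genes that define such cells. Traj18 stood at 5.83 and 4.59 in DKI cells, against 5.80 and 5.79 in WT cells, a fold of -0.58 (SE 0.57, adjusted p = 0.620, limma), which was 0.04 without DKI replicate 2. It stood at 4.15, 3.64 and 3.23 with CCL17, against 3.65, 2.43 and 4.19 without it, a fold of 0.25 (SE 0.46). The groups overlapped in both comparisons. Traj33 stood at 4.47 and 2.81 in DKI cells, against 5.30 and 4.83 in WT cells, a fold of -1.42 (SE 0.77, adjusted p = 0.371, limma), which was -0.59 without DKI replicate 2. It stood at 3.75, 1.69 and 3.25 with CCL17, against 2.55, 2.60 and 1.17 without it, and overlapped there.

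Traj18 averaged 25.7 RPKM over the 10 Th17 libraries, below its neighbours Traj19 at 48.7 and Traj17 at 32.6, while genes that define invariant NKT cells were close to 0. Trav11, the variable segment joined to Traj18 in invariant NKT cells, was above 0 in 2 of the 10 Th17 libraries, at 0.21 and 0.27 on the log2(RPKM + 1) scale. Its near-copy Trav11d, from which reads may not be separable, was at 0.36 or less. Zbtb16, the transcription factor of innate-like T cells, was at 0.12 to 0.49, and the NK receptor gene Klrb1c at 0.11 to 0.72. Trav1, the partner of Traj33 in MAIT cells, was at 0.52 to 2.77. Trav11, Trav11d and Trav1 were picked after Traj18 and Traj33 had been examined.

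Genes of receptor assembly and signalling were taken as a list of 23, from the recombinase and end-joining factors to the CD3 chains. Of these 20 were tested in each comparison and 0 were called in either direction, with median folds of -0.05 for DKI against WT and -0.03 for with against without CCL17. The folds of single genes for DKI against WT ran from -0.85 for Dntt to 0.52 for Hmgb2. Cd3e stood at 8.21 and 8.26 in DKI cells, against 8.54 and 8.64 in WT cells, a fold of -0.36 without overlap. Lig4 and Cd3g were among the least changed, with folds of -0.02 each. The end-joining gene Lig4 stood at 2.38 and 2.16 in DKI cells and at 2.28 and 2.30 in WT cells. Cd3g, a chain of the signalling complex, stood at 8.79 and 8.79 in DKI cells and at 8.79 and 8.84 in WT cells. The medians of the joining segments were -1.34 and 0.42 in the same comparisons.

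The alpha joining segments also differed in level between the 2 sets of DKI libraries, which share no library. DKI cells of the WT comparison had 86.1 and 37.1 segment RPM, and DKI cells labelled as without CCL17 had 22.1, 18.1 and 19.8. Trac stood at 9.27 and 9.35 in the first set and at 8.82 to 8.90 in the second. The sets also differed in myeloid and B cell genes, with 5 B cell genes summing to 2.90 to 4.05 in the first and 5.86 to 6.51 in the second. No test was made between them, and any difference in culture or preparation cannot be told apart from other differences of the sets.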

How the data were processed

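RNA was measured by mRNA sequencing (KAPA mRNA HyperPrep, per the labels' protocols) in 13 mouse libraries. The authors deposited log2 values, log2(RPKM + 1), per gene and library, and per the submitters' processing notes used Subread and featureCounts with build mm10. Their strand setting, other settings and versions are not given in the sources used here. A value of 0.0001, which stands for no reads, was replaced by 0. Spinal cord APCs were matched to a column headed as monocyte-derived cells, since no other sample or column remained.

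Read totals were estimated as those at which the values of short receptor segments of known length (RefSeq, GRCm38.p6) become whole reads. No total could be estimated for bone marrow monocytes. Of the identifiers, 20853 matched that gene table. Segment coordinates equalled those of GENCODE M21 for 41 of 49 segments and differed by at most 7 bases for the others.

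Comparisons used limma (version 3.58.1, R 4.3.3; eBayes with a mean-variance trend, Benjamini-Hochberg adjustment over all genes tested, called at an adjusted p under 0.05). Tested genes had 1 RPKM or more in 2 or more libraries (3 for CCL17). DKI against WT was a contrast in a fit of the 10 Th17 libraries, and the CCL17 comparison used its own 6. The SEs and p-values of DKI against WT therefore also draw on the spread within the groups of the CCL17 experiment. Folds are differences on the log2(RPKM + 1) scale, which understates changes of low genes. The fit was tested on simulated data.

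In the CCL17 experiment, libraries with the same number deviated together from their group means (r = 0.774, 0.509 and 0.525 for numbers 1, 2 and 3, over 11297 genes). The numbers of the labels were therefore used as a block in an alternative fit, and the blocked value is printed where it changes a call. Replicates 2 and 3 correlated across numbers about as much as within them (r = 0.503 and 0.533). These values set number 1 apart from 2 and 3, but do not pair 2 with 2 or 3 with 3. The labels do not state a pairing.

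Segments and lists were chosen with earlier results of these data known. Segments were named if among the 10 highest in mean RPKM, the highest of a library or the 5 of largest spread. The 5 of smallest p in a comparison were taken among segments whose groups did not overlap. Their lack of overlap is thus part of the choice. Traj18 and Traj33 were named in any case. Alternatives covered the filter, the pseudocount, the scaling, the replicate block, the libraries fitted, each library left out, and other indices of spread and likeness.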

Additional observations from a re-analysis of the deposited data

How the results depend on the processing

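The median fold of the segments kept its sign under every alternative that could change it. The replicate block and the choice of Th17 groups fitted cannot change a fold in these designs, so they say nothing on the sign. For DKI against WT it was -1.89 to -0.67 with single libraries left out, the value nearest 0 without DKI replicate 2, and -1.14 relative to Trac, an alternative chosen after seeing the data. For CCL17 it was 0.39 to 0.61 with single libraries left out.

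The number of calls was less stable. Between DKI and WT, segments called were 0 to 1 with single libraries left out, the 1 (Traj44, adjusted p = 0.0479, limma) without DKI replicate 2, and genes called over the table were 0 to 580, at 580 without DKI replicate 2, 123 without WT replicate 2 and 4 without DKI replicate 1. Quantile normalization called 4 genes there. Fitted on the 4 DKI and WT libraries only, 0 segments and 0 genes were called. The adjusted p was then 0.724 for each of Traj44, Traj41 and Traj37 (limma). In the fit of the 10 Th17 libraries it was 0.106, 0.119 and 0.137 (limma). With the replicate number as a block, 10 segments and 1281 genes were called between DKI and WT (20.8%, beside a background of 11.6%). With 2 libraries a group these share only a number (r = 0.455), and the labels do not say that numbers pair them. In the CCL17 comparison the block called 2 segments and 2 genes.

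Folds of some single segments changed sign. With single libraries left out, DKI against WT folds were -0.93 to 0.14 for Traj19, -1.20 to 0.04 for Traj18, -1.19 to 0.24 for Traj16 and -1.36 to 0.01 for Traj12. The folds for CCL17 were -1.26 to 0.07 for Traj49, -0.28 to 1.22 for Traj39, -0.39 to 1.01 for Traj32, -0.13 to 0.24 for Traj23 and -0.24 to 0.64 for Traj18. Traj39 was at -0.36 with a pseudocount of 0.1. The cause was not tested.

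The mean effective number was 27.3 in DKI cells, 32.2 in WT cells, 27.5 with CCL17 and 24.2 without it. With Traj2 and Traj5 added it was 29.0, 33.6 and 29.0 in the first 3. Over segments above 0 in all libraries it was 21.9, 25.3, 22.5 and 19.9, and as the exponential of the Shannon entropy 33.1, 36.5, 32.2 and 30.0, in the same order. Corrected for reads it was 27.9 in DKI cells and 29.5 with CCL17. By the Morisita index, chosen after seeing the data, the median likeness was 0.933 for same-number pairs and 0.971 for other pairs.

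With 0 to 154 reads a segment and library, the precision of single segments is limited by counting error.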
